A study of Mus musculus with 18 samples.

Results

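The 10 genes of lipid handling and of lipid-laden macrophages (foam cells) are described here: Cd36, Gpnmb, Lpl, Fabp4, Fabp5, Abca1, Abcg1, Apoe, Plin2 and Pparg. They are 10 of the 22180 mouse genes that had a probe set of their own on the array. They were chosen by measured values, with results of these arrays already known, because Cd36 was high after Dox in LSK cells and not in AML cells, and Gpnmb was high after the compounds in AML cells. Those values are therefore given without a test.

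The study asked what happens in leukemia cells when reprogramming factors are switched on. All cells were sorted from bone marrow of 4F mice, which carry Oct4, Sox2, Klf4 and c-Myc under doxycycline (Dox) control, so the transgene was also present in both untreated groups. AML cells were GFP+ leukemia cells driven by the MLL-AF9 fusion, and LSK cells were normal lineage-negative, Kit+, Sca1+ stem and progenitor cells. Each was kept for 24 h in vitro as Control, with Dox, or with a mix of 4 compounds (Compound: VPA, CHIR, 616452 and TCP). The 6 groups had 3 arrays each, which the titles call biological repeats without saying whether they came from separate mice or cultures, so that p-values reflect only how far these samples spread, which may be technical. Mouse age and compound doses are not stated in the sources used here.

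Macrophages take up fatty acids and modified lipoproteins through scavenger receptors such as Cd36, keep the surplus as esters in droplets coated by Plin2, and export cholesterol through Abca1 and Abcg1 to acceptors such as Apoe. Cells that store more than they export become foam cells. The nuclear receptors PPARγ and LXR are known regulators of this balance, PPARγ at Cd36 and the fatty acid binding proteins, and LXR at Abca1, Abcg1 and Apoe.

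The values are log2 expression values (RMA), in which 1 unit is a 2-fold difference. The array LSK Compound replicate 1 stood apart: it correlated with the other arrays at only 0.64 to 0.67, against 0.90 to 0.99 among the other 17, and it was left out of the main values, so LSK Compound has n = 2. Klf4 rose with Dox from a mean of 3.27 to 9.14 in AML and from 3.83 to 8.21 in LSK cells, in the direction of the labels. LSK Compound also differed in sex-linked transcripts, with Xist at 7.32 to 7.35 against 9.28 to 9.77 in the 6 untreated or Dox-treated LSK samples, and Eif2s3y at 5.20 to 5.47 against at most 2.64 on all other arrays. The source of these cells and the compound treatment cannot be told apart in that group. Xist was at 2.34 to 3.01 on all 9 AML arrays, far under every LSK array, so the source of the cells and the cell type cannot be told apart in any comparison of AML with LSK cells. All 7 markers of granulocyte progenitors and MLL leukemia were higher in AML Control than in LSK Control, against 15.4% of all genes. Kit (mean 7.71) and Cd34 (10.1) were well expressed in LSK Control, and Ly6a, which encodes Sca1, was not analysed here.

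A gene was tested when it lay above the 40th percentile of its array (the filter level, 2.32 to 2.41) on at least 3 of the 17 arrays. Of the 10 members, 9 passed. Fabp4 was under that level on all 17 arrays and was not tested. Pparg was above it on 6 arrays and Cd36 on 11, and the remaining members on all 17. The number of arrays limits the precision, and the small groups share 1 estimate of the spread.

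The promoter windows of the 4 members whose values turn on the treatments, and which have an entry, show what lies at the start of each gene. They are from RefSeq (GRCm38.p6), 300 bases long, from 250 before to 50 after the annotated start, 5′ to 3′ on the gene's strand. Capitals mark matches to the motifs searched on both strands: TATAAA, the KLF core CACCC, the E-box CACGTG, the MITF-type E-box TCATGTG, the GC box GGGCGG, and direct repeats of the nuclear receptor core site, AGGTCANAGGTCA (DR1, bound by PPAR) and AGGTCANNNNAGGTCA (DR4, bound by LXR), with up to 2 mismatches. None of these motifs overlapped another in the windows shown.
Cd36, chr5:17835847-17836146, minus strand: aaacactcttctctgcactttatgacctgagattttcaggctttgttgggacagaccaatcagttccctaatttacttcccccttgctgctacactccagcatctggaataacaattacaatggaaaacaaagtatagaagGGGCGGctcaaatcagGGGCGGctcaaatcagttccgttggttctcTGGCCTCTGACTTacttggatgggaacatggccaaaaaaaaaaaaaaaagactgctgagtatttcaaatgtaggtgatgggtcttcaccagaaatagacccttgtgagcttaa
Gpnmb, chr6:49036268-49036567, plus strand: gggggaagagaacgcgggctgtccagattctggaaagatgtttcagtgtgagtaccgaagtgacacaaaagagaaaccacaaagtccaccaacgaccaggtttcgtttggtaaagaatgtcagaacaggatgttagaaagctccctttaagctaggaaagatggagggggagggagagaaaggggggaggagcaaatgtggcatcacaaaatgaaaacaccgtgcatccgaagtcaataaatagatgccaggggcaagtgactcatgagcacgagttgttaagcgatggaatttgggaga
Abca1, chr4:53159846-53160145, minus strand: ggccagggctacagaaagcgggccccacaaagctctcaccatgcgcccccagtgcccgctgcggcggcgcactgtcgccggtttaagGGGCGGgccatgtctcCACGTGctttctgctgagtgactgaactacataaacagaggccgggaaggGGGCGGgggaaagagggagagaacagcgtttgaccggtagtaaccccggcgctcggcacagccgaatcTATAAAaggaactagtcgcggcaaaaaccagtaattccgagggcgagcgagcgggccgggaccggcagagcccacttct
Plin2, chr4:86670010-86670309, minus strand: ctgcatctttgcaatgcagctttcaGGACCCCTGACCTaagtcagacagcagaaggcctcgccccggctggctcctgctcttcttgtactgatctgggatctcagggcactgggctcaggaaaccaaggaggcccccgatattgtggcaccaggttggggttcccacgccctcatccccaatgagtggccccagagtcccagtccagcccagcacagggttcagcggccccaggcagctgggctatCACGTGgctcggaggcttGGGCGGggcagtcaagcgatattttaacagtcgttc

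Positions count from the annotated start base, taken as 0. The Cd36 window held 2 GC boxes, which begin at -109 and -93, and a DR1-type repeat with 2 mismatches on the opposite strand, from -63 to -51. The Abca1 window held a TATA box at -29, an E-box at -147 and GC boxes at -163 and -97. The Plin2 window held an E-box that spans the start (-4 to 1), a GC box at 14 and a DR1-type repeat with 2 mismatches on the opposite strand, from -225 to -213. The Gpnmb window held none of the motifs searched, which says only that these letters are not in this window. The same holds for the DR4 repeat, unmarked in all 4 windows, Abca1 included: a site with more than 2 mismatches would not be marked. The KLF core, present in 57.5% of all 32851 windows of that length, was in none of the 4 windows. The GC box was in 35.7% of all windows, TATAAA in 13.6%, CACGTG in 7.15%, TCATGTG in 3.77%, the DR1 repeat with up to 2 mismatches in 3.86% and the DR4 repeat in 3.02%. A match is a description of the letters and not of binding. Of the 10 members, 6 had an entry, Apoe and Pparg among them.

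Dox raised Abca1 by 8.50-fold in LSK and 14.0-fold in AML cells and lowered Gpnmb in LSK cells. The compounds raised Plin2, Cd36 and Abca1 in both cell types, lowered Abcg1 in both, and lowered Lpl in LSK cells. In AML Dox against AML Control, 3 of the 8 members with a test rose (Abca1, Plin2 and Lpl), and of all genes tested 48.6% were called, 23% higher and 25.6% lower. In AML Compound against AML Control, 4 of 8 rose (Cd36, Plin2, Abca1 and Fabp5) and 1 fell (Abcg1), against 32% of all genes called, 12.8% higher and 19.2% lower. In LSK Dox against LSK Control, 1 of 8 rose (Abca1) and 3 fell (Gpnmb, Lpl and Fabp5), against 19.1% called, 9.21% higher and 9.93% lower. In LSK Compound against LSK Control, 4 of 9 rose (Cd36, Gpnmb, Plin2 and Abca1) and 2 fell (Lpl and Abcg1), against 34.2% called, 14.2% higher and 20% lower. The median difference of the members counted was 0.04, 0.36, -0.06 and -0.04 in these 4 comparisons, and that of all genes tested -0.01, -0.03, -0.05 and -0.05. The treatments of a cell type share their control arrays, so their values are set side by side and no overlap between them is given. For the same reason, the Cd36 calls with the compounds and the Gpnmb value with Dox in AML cells are not independent of the choice of these genes.

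**Figure D1:**
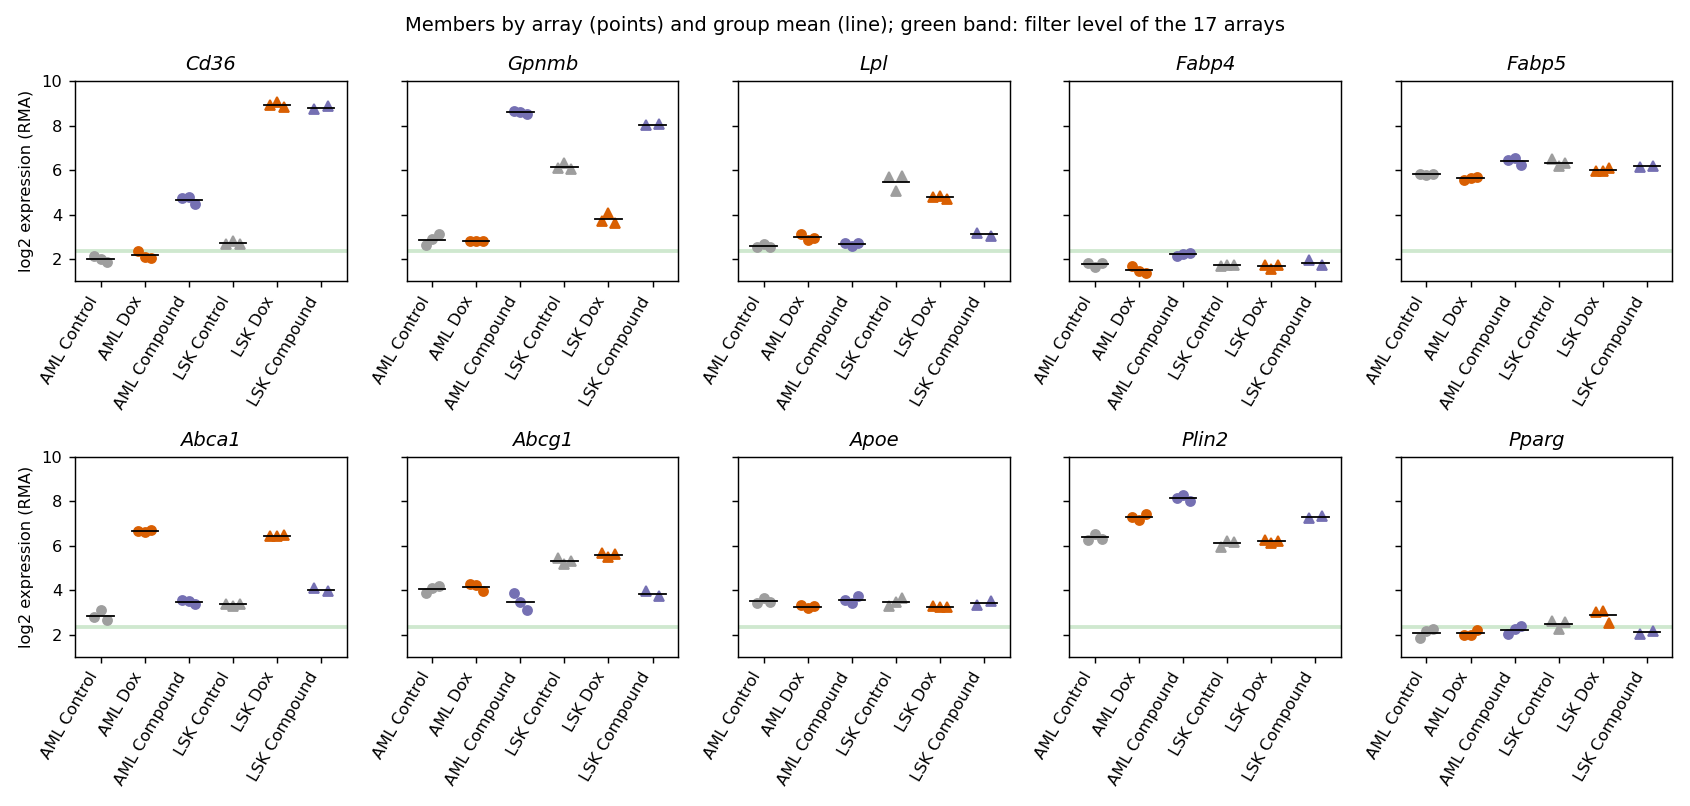
Each panel shows 1 member. The y axis is the log2 RMA value, points are arrays (circles AML, triangles LSK), black lines are group means, and the green band is the filter level of the 17 arrays. Cd36 lies between 8.72 and 9.06 on the LSK Dox and LSK Compound arrays, Gpnmb is high with the compounds in both cell types, Abca1 is high with Dox in both, and Fabp4 stays under the band.

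Cd36, the fatty acid and oxidised lipoprotein receptor, was at 2.12, 1.999 and 1.88 on the AML Control arrays, at 2.35, 2.08 and 2.07 with Dox, and at 4.72, 4.77 and 4.47 with the compounds. On the LSK arrays Cd36 was at 2.68, 2.83 and 2.695 in Control, at 8.94, 9.06 and 8.81 with Dox, and at 8.72 and 8.89 with the compounds. The AML Control and AML Dox arrays overlapped and lay under the filter level, while every treated LSK array lay far above every other array. The LSK Dox difference of 6.203 (73.7-fold) and the AML Dox difference of 0.17 were the values that chose this gene and have no test. The compounds, which the choice did not use, raised Cd36 by 6.07 ± 0.12 (SE) in LSK cells (67.3-fold, adjusted p = 1.1e-15) and by 2.65 ± 0.11 in AML cells (adjusted p = 1.23e-11). With the AML Control arrays, all under their filter level, set to that level, the AML difference was at least 2.31. The compound response was smaller in AML than in LSK cells, by 3.42 ± 0.17 with the dim values as deposited (adjusted p = 1.64e-10) and by at most 3.77 with them at the filter level. These compound differences share their control arrays with the Dox differences that chose Cd36. The order of the group means was LSK Dox, LSK Compound, AML Compound, LSK Control, AML Dox and AML Control, and the first pair, LSK Dox and LSK Compound, 0.13 apart, overlapped, as did the last pair.

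Cd36 was lower in untreated AML than in untreated LSK cells by 0.74, or by at least 0.39 with dim values set to the filter level. Both control groups entered the choice of Cd36, so this is a description with no test. On LSK Compound replicate 1, the array left out, Cd36 was at 2.28, under all 3 LSK Control arrays. With that array included, the LSK compound difference was 3.90 (adjusted p = 0.0289), the AML compound difference kept its size but had an adjusted p of 0.248, and the difference between the responses was -1.24 (adjusted p = 0.672). Cd36 is also a gene of platelets and megakaryocytes, whose 5 listed markers with a probe set had a mean of 3.59 to 3.86 per array in LSK Control, 4.22 to 4.43 with Dox and 4.84 to 4.85 with the compounds, and 2.98 to 3.16 in AML Control against 3.17 to 3.25 with Dox and 4.74 to 4.97 with the compounds. The markers did not move together: Ppbp and Pf4 rose and Gp9 and Itga2b fell with each treatment in LSK cells, and Ppbp and Pf4 rose with the compounds in AML cells. With Dox in AML cells limma called 0 of the 5, with 0 at an unadjusted p under 0.05, against 48.6% of all genes called. Ppbp went from 2.80 to 6.41 with Dox and 6.99 with the compounds in LSK cells and from 2.73 to 10.5 with the compounds in AML cells. Pf4 went from 4.10 to 4.72 and 7.16 in LSK cells, whereas Gp9 went from 4.66 to 3.91 and 3.30 and Itga2b from 4.41 to 3.64 and 3.79. Their part in the Cd36 result was not tested. In such bulk samples, more cells of a type and more RNA per cell cannot be told apart.

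Lpl, the lipase that releases fatty acids from circulating triglycerides, was highest in untreated LSK cells. It was at 5.70, 5.04 and 5.71 in LSK Control, at 4.78, 4.84 and 4.69 with Dox, and at 3.17 and 3.04 with the compounds. In AML cells it was at 2.53, 2.69 and 2.56 in Control, at 3.12, 2.87 and 2.93 with Dox, and at 2.72, 2.60 and 2.71 with the compounds. The 3 LSK groups did not overlap, and the AML arrays lay not far above the filter level. Lpl was lower in AML Control than in LSK Control by 2.89 ± 0.14, or 7.42-fold (adjusted p = 4.94e-11). In LSK cells it fell by 0.72 ± 0.14 with Dox (adjusted p = 0.00137) and by 2.38 ± 0.16 with the compounds (5.20-fold, adjusted p = 1.92e-09). In AML cells it rose with Dox by 0.38 ± 0.14 (adjusted p = 0.0324), and with the compounds the difference was 0.08 ± 0.14 (adjusted p = 0.729). The AML Dox call ended in several fits, with an adjusted p of 0.109 with all 18 arrays, 0.0929 with arrays centred on their median, and 0.131 without AML Dox replicate 1. The 2 cell types differed in response, by 1.10 ± 0.20 for Dox (adjusted p = 0.000211) and by 2.46 ± 0.21 for the compounds (adjusted p = 1.62e-07), and with all 18 arrays these were 1.10 and 2.46 (adjusted p = 0.00394 and 1.31e-05). The AML Control mean was 2.59, so falls as large as those in LSK cells would have ended under the filter level. These differences in response therefore rest mainly on the LSK falls. A second, dimmer Lpl probe set gave -0.58 and -0.90 for Dox and the compounds in LSK cells.

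Gpnmb, a lysosomal membrane glycoprotein of lipid-laden macrophages, was at 2.61, 2.89 and 3.14 in AML Control, at 2.80, 2.83 and 2.80 with Dox, and at 8.67, 8.62 and 8.50 with the compounds. Its LSK values were 6.09, 6.31 and 6.05 in Control, 3.72, 4.07 and 3.61 with Dox, and 8.03 and 8.05 with the compounds. The compound arrays of both cell types were above all others, and LSK Dox lay between the untreated groups. The AML compound difference of 5.72 (52.6-fold) chose this gene and has no test, nor has the difference between the 2 compound responses, 3.83. In LSK cells, which the choice did not use, the compounds raised Gpnmb by 1.89 ± 0.15 (3.71-fold, adjusted p = 1.61e-08) and Dox changed it by -2.35 ± 0.13, a 5.09-fold fall (adjusted p = 8.09e-10). In AML cells the Dox difference was -0.07 ± 0.13 (95% interval -0.35 to 0.21, adjusted p = 0.718), and it differed from that in LSK cells by 2.28 ± 0.18 (adjusted p = 2.54e-08). AML Control, with a mean of 2.88, lay not far above the filter level (2.32 to 2.41). A fall as large as that in LSK cells could therefore not have shown in AML cells. The AML Dox difference and the difference between the Dox responses share the AML Control arrays with the difference that chose Gpnmb. Untreated AML cells had less Gpnmb than untreated LSK cells by 3.27, or 9.65-fold. The AML Control arrays entered the choice of Gpnmb, so this is a description with no test.

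On LSK Compound replicate 1 Gpnmb was at 3.20, under the LSK Control arrays. With it included, the LSK compound difference was 0.28 (adjusted p = 0.813), the LSK Dox difference kept its size with an adjusted p of 0.226, and the AML against LSK difference between the Dox responses had an adjusted p of 0.299. Monocyte and macrophage markers moved with Gpnmb in AML cells: 11 of 12 rose with the compounds, against 12.8% of all genes higher. Their mean per array was 4.37 to 4.45 in AML Control and 6.24 to 6.46 with the compounds. Adgre1, which encodes F4/80, went from 5.87 to 9.43 there, and from 4.45 to 8.69 with the compounds in LSK cells. In LSK Compound 4 of the 12 rose (Adgre1, Cd14, Fcgr1 and Itgam) and 2 fell (Csf1r and Mrc1), against 14.2% of all genes higher and 20% lower. The mean per array in LSK cells was 4.88 to 5.07 in Control and 5.70 to 5.74 with the compounds, while the median difference of the 12 was 0.04. Adgre1 and Cd14, which went from 4.88 to 9.69, rose most there. Csf1r went from 5.81 to 5.35 and Mrc1 from 3.04 to 2.10. With Dox, 3 rose and 4 fell in AML cells and 1 rose and 3 fell in LSK cells, against 48.6% and 19.1% of all genes called. The part of these markers in the Gpnmb result was not tested.

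**Figure D2:**
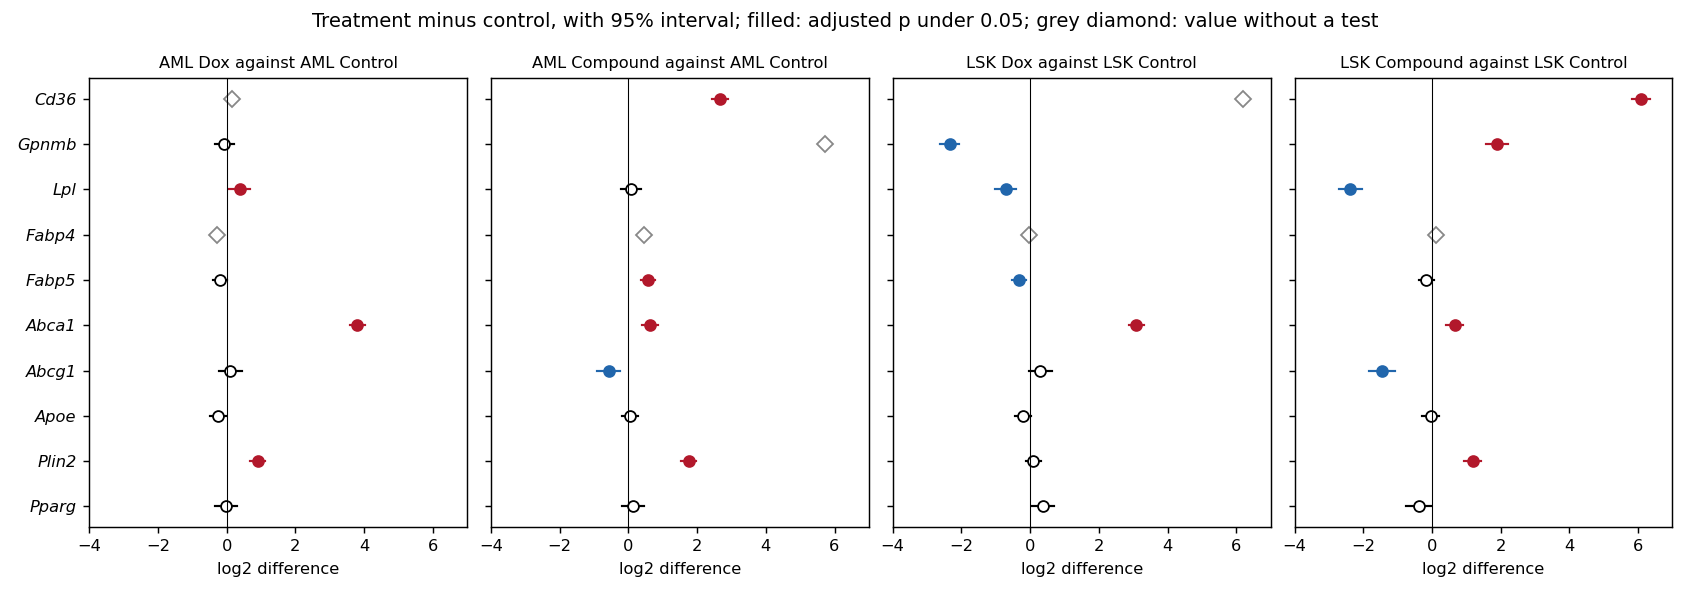
Log2 differences (x axis) of the 10 members (y axis) for each treatment against the control of the same cell type. Circles carry 95% intervals, filled ones have an adjusted p under 0.05 (red higher, blue lower), and grey diamonds are values without a test. Abca1 is to the right in both Dox panels at 3.80 and 3.09, Plin2 is to the right in both compound panels, and Cd36 lies at 6.07 in the LSK Compound panel.

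Plin2, the protein that coats lipid droplets, was well expressed in every group. It was at 6.28, 6.54 and 6.32 in AML Control, at 7.27, 7.18 and 7.41 with Dox, and at 8.13, 8.26 and 8.01 with the compounds, and the 3 groups did not overlap. In LSK cells it was at 5.96, 6.198 and 6.19 in Control, at 6.27, 6.11 and 6.23 with Dox, which overlapped, and at 7.26 and 7.33 with the compounds. In AML cells Plin2 rose by 0.90 ± 0.10 with Dox (1.87-fold, adjusted p = 7.34e-07) and by 1.75 ± 0.10 with the compounds (3.37-fold, adjusted p = 1.01e-09). In LSK cells it rose by 1.18 ± 0.11 with the compounds (2.27-fold, adjusted p = 3e-07), and the Dox difference was 0.09 (95% interval -0.13 to 0.31, adjusted p = 0.62). The Dox response was larger in AML cells by 0.81 ± 0.15 (adjusted p = 0.000196), and the compound response by 0.57 ± 0.15 (adjusted p = 0.0153, or 0.0622 without LSK Compound replicate 2). With LSK Compound replicate 1 included, where Plin2 was at 5.05, the LSK compound difference was 0.43 (adjusted p = 0.431), the compound responses differed by 1.32 (adjusted p = 0.332), and of the Plin2 values only the AML compound difference kept its call (adjusted p = 0.016).

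Abca1, the transporter that passes cholesterol and phospholipid to lipid-poor apolipoproteins, followed Dox. It was at 2.80, 3.13 and 2.65 in AML Control, at 6.66, 6.61 and 6.73 with Dox, and at 3.57, 3.52 and 3.38 with the compounds. LSK Control had Abca1 at 3.40, 3.31 and 3.39, LSK Dox at 6.43, 6.44 and 6.49, and LSK Compound at 4.09 and 3.95. No group of a cell type overlapped another of it. Dox raised Abca1 by 3.80 ± 0.105 in AML cells (14.0-fold, adjusted p = 1.58e-14) and by 3.09 ± 0.105 in LSK cells (8.50-fold, adjusted p = 2.32e-12). The AML response was the larger by 0.72 ± 0.15 (adjusted p = 0.000779), while untreated AML cells had less Abca1 by 0.50 ± 0.105 (adjusted p = 0.00129). The compounds raised it by 0.63 ± 0.105 in AML cells (adjusted p = 0.000169) and by 0.66 ± 0.12 in LSK cells (adjusted p = 0.000265), a difference between cell types of -0.03 (95% interval -0.36 to 0.31). With LSK Compound replicate 1 included, where Abca1 was at 4.74, both Dox calls held (adjusted p = 5.51e-10 and 2.78e-08), the compound difference was 0.90 in LSK cells (adjusted p = 0.00337), and in AML cells its adjusted p was 0.0504. The difference of the Dox responses then had an adjusted p of 0.0825, and that of the untreated cells 0.118.

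Abcg1, which exports cholesterol to mature HDL, did not follow Abca1. It was at 3.89, 4.12 and 4.18 in AML Control, at 4.29, 4.24 and 3.95 with Dox, and at 3.88, 3.48 and 3.10 with the compounds. The LSK arrays had it at 5.45, 5.20 and 5.30 in Control, at 5.69, 5.48 and 5.64 with Dox, and at 3.96 and 3.75 with the compounds. The LSK Control and LSK Dox arrays lay above every AML array, and the LSK Compound arrays among them. The Dox differences were 0.10 ± 0.16 in AML cells (adjusted p = 0.664) and 0.29 ± 0.16 in LSK cells (adjusted p = 0.247). With the compounds Abcg1 fell by 1.46 ± 0.18 in LSK cells (2.75-fold, adjusted p = 4.29e-06) and by 0.58 ± 0.16 in AML cells (adjusted p = 0.00923). The AML fall lost its call without AML Compound replicate 3 (-0.38, adjusted p = 0.0574), in a fit of the AML groups compared alone (adjusted p = 0.0501) and with all 18 arrays (0.344). The fall was smaller in AML cells by 0.88 ± 0.24 (adjusted p = 0.0149, or 0.0839 without LSK Compound replicate 3), and by 0.47 with all 18 arrays (adjusted p = 0.555). Untreated AML cells had less Abcg1 by 1.25 ± 0.16, or 2.38-fold (adjusted p = 9.36e-06). With all 18 arrays the LSK fall was -1.05 (adjusted p = 0.0189).

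Apoe, the apolipoprotein that accepts exported cholesterol, was low in all groups. Its 17 values lay between 3.20 and 3.72, and its lowest and highest group means were 3.26 in LSK Dox and 3.57 in AML Compound. No Apoe difference passed the test, with adjusted p from 0.0581 (AML Dox, -0.25 ± 0.11) to 0.868. The AML Dox difference did pass with arrays centred on their median (adjusted p = 0.0112), with quantile normalization (0.00404) and in 3 other fits. On LSK Compound replicate 1 Apoe was at 4.44, above all 17 other arrays.

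The fatty acid binding proteins carry fatty acids inside the cell, Fabp4 in adipocytes and macrophages and Fabp5 in many cell types. Fabp4 was between 1.37 and 2.28 on the 17 arrays, under the filter level on each, so no fold is given. Its group means ran from 1.504 in AML Dox to 2.22 in AML Compound. Fabp5 was at 5.83, 5.80 and 5.83 in AML Control, at 5.53, 5.64 and 5.70 with Dox, and at 6.44, 6.52 and 6.22 with the compounds. In LSK cells it was at 6.48, 6.196 and 6.31 in Control, at 5.95, 5.98 and 6.11 with Dox, and at 6.15 and 6.19 with the compounds. The AML Compound arrays were above the AML Control arrays, and the LSK groups lay close together. Fabp5 rose with the compounds in AML cells by 0.58 ± 0.10 (1.49-fold, adjusted p = 0.000183) and fell with Dox in LSK cells by 0.32 ± 0.10 (adjusted p = 0.0308). The LSK Dox call ended without LSK Control replicate 1 (adjusted p = 0.147) or 3 (0.0642), without LSK Dox replicate 1 (0.103) or 2 (0.092), in a fit of the groups compared only (0.0699) and with all 18 arrays (0.397). The other differences were -0.19 with Dox in AML cells (adjusted p = 0.117) and -0.16 with the compounds in LSK cells (adjusted p = 0.3). The AML Dox difference was called with the mean of all probe sets (-0.34, adjusted p = 0.00612) and with median centring (-0.28, adjusted p = 0.036). The compound response differed between cell types by 0.74 ± 0.15 (adjusted p = 0.00148), and untreated AML cells had less Fabp5 by 0.51 ± 0.10 (adjusted p = 0.000577). Fabp5 had 4 probe sets, and the 3 not used gave 0.51, 1.12 and 1.205 for the compounds in AML cells, -0.25, -0.45 and -0.47 for Dox in AML cells and -0.86, -0.49 and -0.47 for Dox in LSK cells, all in the direction of the one used.

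Pparg, the nuclear receptor PPARγ, was near the filter level everywhere. It was at 1.86 to 2.41 on the 9 AML arrays, at 2.63, 2.27 and 2.58 in LSK Control, at 3.03, 3.07 and 2.52 in LSK Dox, and at 2.02 and 2.18 in LSK Compound. LSK Dox was the highest group and overlapped LSK Control. No Pparg difference passed the test in the main fit. In LSK cells it was 0.38 ± 0.15 with Dox (adjusted p = 0.1) and -0.39 ± 0.17 with the compounds (adjusted p = 0.094). The Dox difference was called with dim values at the filter level (adjusted p = 0.0411) and without LSK Dox replicate 3 (0.0166). The compound difference was called without LSK Control replicate 2 (0.0445). In AML cells it was -0.03 (adjusted p = 0.921) and 0.14 (adjusted p = 0.573). Pparg was above the filter level on 0 AML Control, 0 AML Dox, 1 AML Compound and 0 LSK Compound arrays, so the AML differences compare values near background and say little. In LSK Dox, LSK Compound and AML Compound, the 3 groups with the highest Cd36, the Pparg means were 2.87, 2.10 and 2.24. Any part of Pparg in the Cd36 values was not tested.

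Before treatment, Lpl, Abcg1, Fabp5 and Abca1 were lower in AML than in LSK cells, and Plin2, Apoe and Pparg had no call. Of all genes, 29.6% were called, 15.4% higher and 14.2% lower. Cd36 and Gpnmb, whose choice used the AML Control arrays, are left out here. The median difference, with Cd36 and Gpnmb included, was -0.51 and that of all genes tested was near 0. With all 18 arrays, Lpl, Abcg1 and Fabp5 kept their call and Abca1 did not. In the difference of the Dox responses (AML minus LSK), 4 of 8 members had a positive value (Gpnmb, Lpl, Plin2 and Abca1) that was called. Of all genes, 40.1% were called, 18.6% higher and 21.5% lower. In the difference of the compound responses, 4 of 8 had a positive value that was called (Lpl, Abcg1, Fabp5 and Plin2) and Cd36 a negative one. Of all genes, 17.1% were called, 8.69% higher and 8.37% lower. For Gpnmb in the Dox responses the sign comes from the fall in LSK cells, and for Lpl in the compound responses from its fall there. Both genes lay not far above the filter level in AML Control (means 2.88 and 2.59), so falls of that size could not have shown in AML cells. Gpnmb in the Dox responses and Cd36 in the compound responses share control arrays with the differences that chose these genes. Abcg1 fell with the compounds in both cell types, by less in AML (-0.58) than in LSK cells (-1.46).

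The 8 lists of other genes of these pathways, 112 genes in all, had 90 genes tested. Of these, 19 rose and 24 fell in AML Dox (47.8% called, against 48.6% of all genes tested), 32 rose and 12 fell in AML Compound (48.9% against 32%), 13 rose and 12 fell in LSK Dox (27.8% against 19.1%), and 29 rose and 14 fell in LSK Compound (47.8% against 34.2%). The AML Dox share of the lists was thus that of genes in general. With all 18 arrays, of 91 genes tested, 19, 10, 6 and 17 were called in these comparisons. The treatment differences named from these lists have an adjusted p of at most 0.046 and an SE of 0.08 to 0.23.

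The scavenger receptors and lipid importers rose with the compounds, 8 of 13 in AML cells and 7 of 13 in LSK cells, where 2 fell, against 12.8% and 14.2% of all genes higher. In AML cells the receptors with the smallest p were Cd68 (2.73), the scavenger receptor A gene Msr1 (2.63), Stab1 (2.18) and the oxidised LDL receptor Olr1 (1.12). In LSK cells they were Cxcl16, which also binds oxidised lipoprotein (4.71), Marco (2.79), the LDL receptor family member Lrp1 (2.32) and Stab1 (1.28). Cxcl16 and Lrp1 responded more in LSK cells, with AML minus LSK differences of -4.36 and -1.71 (adjusted p = 5.06e-12 and 3.46e-07), and Cd68 more in AML cells, with 2.16 (adjusted p = 3.7e-07). With Dox, 2 of 13 rose and 5 fell in AML cells, where 23% of all genes were higher and 25.6% lower, among them Olr1 (-3.78), Cd68 (-2.26), the HDL receptor Scarb1 (-2.12) and the lysosomal Scarb2 (1.32). In LSK cells, 3 rose and 5 fell with Dox, against 9.21% higher and 9.93% lower over all genes, Scarb2 (1.30) and Lrp1 (0.80) up and Vldlr (-0.64) and Msr1 (-0.55) down.

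The list around Gpnmb, of MITF and TFE factors, lysosomal cathepsins and genes of lipid-laden macrophages, had 9 of 14 genes higher and 1 lower with the compounds in AML cells, and 8 higher and 3 lower in LSK cells, against 12.8% and 14.2% of all genes higher and 19.2% and 20% lower. The cathepsin Ctsl rose by 3.67 and 3.06 in AML and LSK cells, Ctsb by 1.55 and 1.18, and Ctsd by 1.51 and 0.54. The tetraspanin Cd9 rose by 2.98 in AML cells, more than in LSK cells by 2.51 (adjusted p = 4.32e-10). Tfec, of the MITF family, fell with the compounds in LSK cells (-1.19). With Dox, 3 of 14 rose and 3 fell in AML cells, close to the 23% and 25.6% of all genes, with Cd9 (2.05) and Ctsl (1.82) up and Cd63 (-2.49) and Tfec (-1.35) down. In LSK cells 3 rose and 4 fell (9.21% and 9.93% of all genes), with Cd9 (1.18) and Lgals3 (0.78) up and Tfec (-0.96) and Cd63 (-0.91) down. The lysosomal acid lipase Lipa, which frees cholesterol and fatty acids from lipoprotein esters, rose with the compounds by 2.05 in AML and 0.83 in LSK cells, and with Dox by 1.39 in AML cells.

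Of 8 tested genes of the LXR pathway, Smpdl3a, a phosphodiesterase gene known as an LXR target, rose with Dox by 3.28 in AML and 2.53 in LSK cells. Mylip, which encodes the LXR-induced ligase that degrades the LDL receptor, rose by 1.66 in AML cells, while Srebf1 (-0.62) and Lpcat3 (-0.39), also known LXR targets, fell there. In LSK cells Dox raised the receptor partner Rxra (1.57) and the desaturase Scd1 (0.98). The counts were 2 higher and 3 lower in AML Dox and 3 of 8 higher in LSK Dox, against 23% and 9.21% of all genes higher and 25.6% and 9.93% lower. With the compounds, where 32% of all genes were called in AML and 34.2% in LSK cells, 2 rose and 2 fell in AML cells (Smpdl3a 0.75, Mylip 0.57, Srebf1 -0.64, Rxrb -0.55), and 2 rose in LSK cells (Scd1 0.89, Lpcat3 0.40). Among the LXR targets named, Abca1 and Smpdl3a rose with Dox in both cell types, and Abcg1 and Apoe had no call in either.

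Of 10 genes of the PPAR pathway, 3 rose and 1 fell with Dox in AML cells and 2 rose and 1 fell in LSK cells, against 48.6% and 19.1% of all genes called. The fatty acid oxidation enzymes Acadl (1.61 and 0.63) and Cpt1a (0.80 and 0.37) rose in AML and LSK cells, Hadha rose in AML cells (0.87), and the coactivator gene Ppargc1b fell in both (-0.41 and -0.60). With the compounds, the receptor gene Ppard rose by 0.64 in AML and 0.76 in LSK cells and Acadl by 0.41 and 0.86, while Hadha (-0.54) and Acadvl (-0.34) fell in AML cells and Cpt1a (-0.85) and Ech1 (-0.64) in LSK cells. The counts with the compounds were 2 higher and 2 lower in AML cells and 2 higher and 4 lower in LSK cells, against 32% and 34.2% of all genes called.

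Of 14 tested genes of droplets and ester storage, 3 rose and 2 fell with the compounds in AML cells and 3 rose and 1 fell in LSK cells, near the 32% and 34.2% of all genes called. Among these were the triglyceride-forming Dgat1 (1.27 and 1.59), Plin3 (0.68 and 0.997) and Hilpda (0.39 and 2.07), and Abhd5, the coactivator of triglyceride lipolysis, fell in both (-0.77 and -0.78). With Dox, Abhd5 rose by 2.25 and Plin3 by 0.86 in AML cells, where 2 rose and 3 fell against 48.6% of all genes called, and Plin3 rose by 0.53 in LSK cells, the 1 gene of the list called there, against 19.1% of all genes. Of 13 genes of cholesterol efflux and transport, 5 rose and 3 fell in AML Compound and 3 rose and 1 fell in LSK Compound, against 32% and 34.2% of all genes called. The cholesterol ester hydrolase Nceh1 (1.54 and 0.98) and the lysosomal transporters Npc2 (0.94 and 1.04) and Npc1 (0.75 and 0.81) rose in both, and the Abca1 relative Abca2 fell in both (-1.23 and -1.83). With Dox, 3 rose and 3 fell in AML cells and 1 rose and 1 fell in LSK cells, near the 48.6% and 19.1% of all genes called: Abca2 fell in both (-1.23 and -0.47), Npc2 rose in AML cells (1.73), and the phospholipid transfer protein Pltp rose in LSK cells (1.22).

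Of 10 genes of lipolysis and its regulators, Angptl4, an inhibitor of the Lpl enzyme, fell with Dox in AML cells (-2.22) and with the compounds in AML (-0.61) and LSK cells (-1.44). Lipg, the endothelial lipase related to Lpl, fell in LSK cells with Dox (-1.74) and with the compounds (-0.58), as Lpl did, and Mgll rose in AML Compound (2.27). The counts were 3 higher and 3 lower in AML Dox, 2 and 1 in AML Compound, 1 lower in LSK Dox, and 2 and 2 in LSK Compound, against 48.6%, 32%, 19.1% and 34.2% of all genes called. Of 8 genes that bind or activate fatty acids, 4 were called in AML Dox (Acbd3 0.71, Acsl5 -1.08, Fabp3 -0.32, Acsl4 -0.22), 2 in AML Compound (Dbi 0.36, Acsl5 -0.72) and 3 in LSK Compound (Acsl4 0.99, Acbd3 0.60, Acsl5 -0.29), against 48.6%, 32% and 34.2% of all genes. In LSK Dox limma called 0 of the 8, and 0 had an unadjusted p under 0.05.

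**Figure D3:**
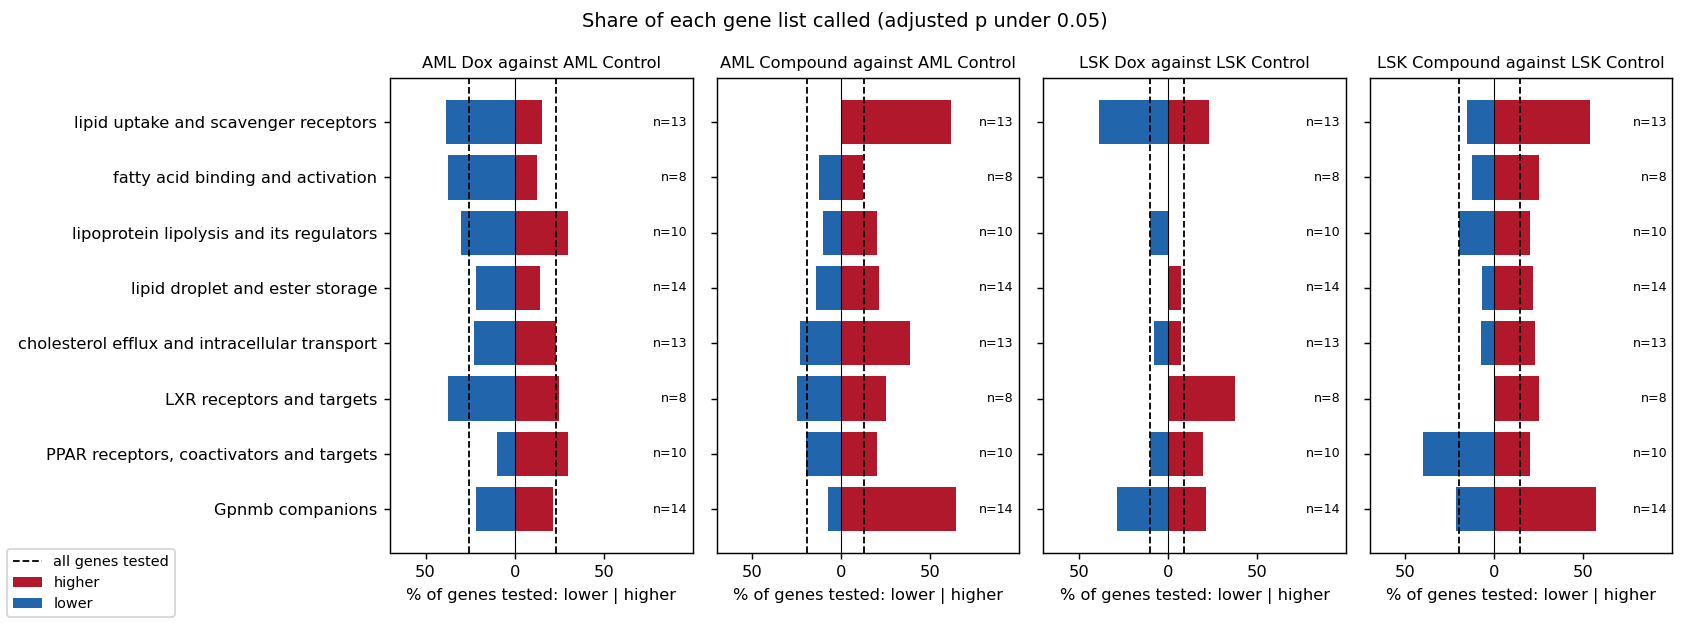
Bars give the percentage of the tested genes of each list (y axis, n at the right) called lower (blue, to the left) and higher (red, to the right) in each treatment comparison, and dashed lines give the same over all genes tested. In both compound panels the scavenger receptor list (61.5% and 53.8% higher) and the list around Gpnmb reach far past the dashed line on the higher side.

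The genes whose pattern over the 17 arrays was most like that of Cd36, by Pearson's r of log2 values, were Rasgrp1 (0.98), Procr (0.97), Dusp3 (0.96), Itgb7 (0.95) and Fstl1 (0.95). Procr, the endothelial protein C receptor and a marker of stem cells, went from 3.79 ± 0.16 (SD, n = 3) in LSK Control to 6.57 ± 0.19 (n = 3) with Dox and 6.52 ± 0.40 (n = 2) with the compounds, and from 3.01 to 3.46 and 3.75 in AML cells. Itgb7, an integrin chain, went from 4.50 to 7.12 and 6.49 in LSK cells and from 3.66 to 3.97 and 5.72 in AML cells. The genes most like Gpnmb were Litaf (0.98), Emb (0.97), Tarm1 (0.97), Msr1 (0.96) and P2rx4 (0.95). Tarm1, a myeloid receptor, went from 3.80 ± 0.27 in AML Control to 3.66 ± 0.14 with Dox and 9.81 ± 0.15 with the compounds, and from 7.26 ± 0.11 in LSK Control to 6.10 ± 0.09 and 10.8 ± 0.04. P2rx4, an ATP-gated channel, went from 5.31 to 5.86 and 8.66 in AML cells and from 6.83 to 6.38 and 9.07 in LSK cells. These correlations describe arrays that share groups and treatments and carry no test, and Cd36 and Gpnmb themselves correlated at 0.32 over the same arrays.

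**Figure D4:**
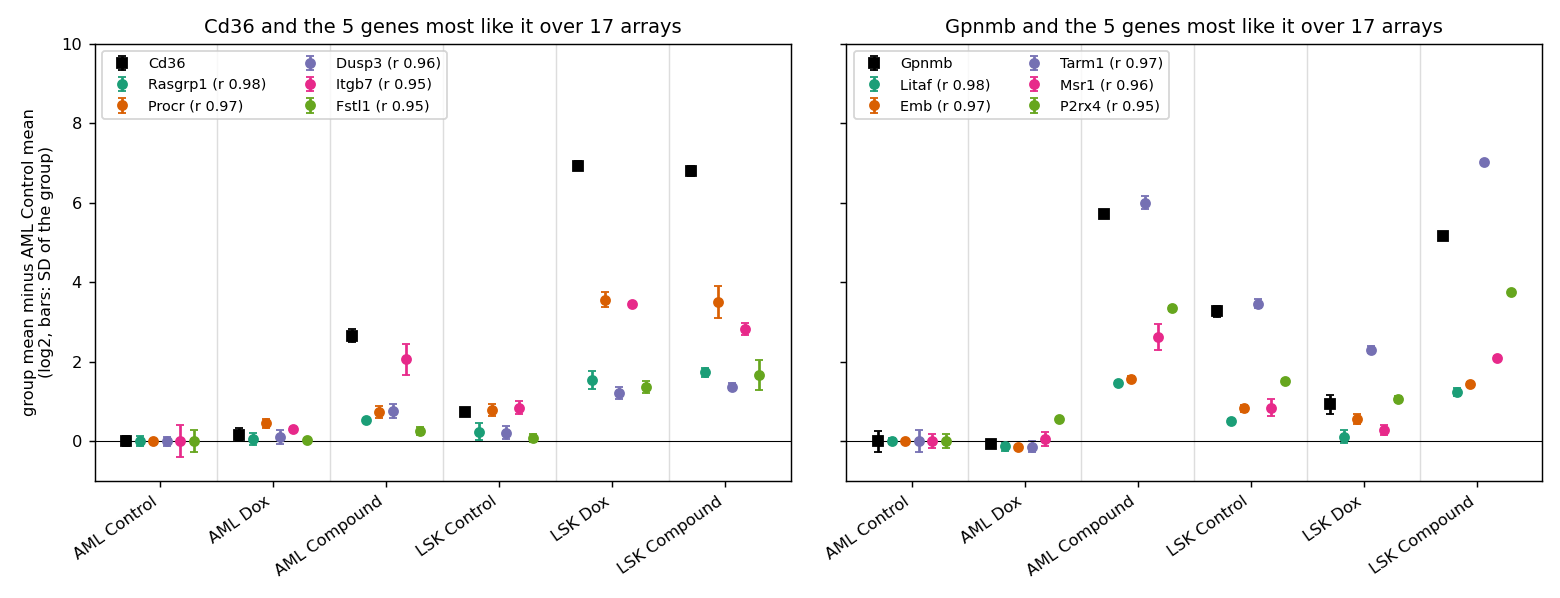
Group means minus the AML Control mean of the same gene (y axis, log2) in the 6 groups (x axis), for Cd36 (left, black squares) and Gpnmb (right, black squares) with the 5 genes most like each (coloured circles). Bars are the SD of the group. The genes like Cd36 are highest in LSK Dox and LSK Compound, and those like Gpnmb in AML Compound and LSK Compound.

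Adipocytes share Cd36, Lpl, Fabp4, Plin2 and Pparg with macrophages. Of their 7 listed markers 6 had a probe set, with a mean over the list of 2.23 to 2.47 per array. Adipoq, Lep, Retn and Aqp7 had group means of at most 2.31, at background, while Plin1 (2.61 to 2.93) and Cidec (2.42 to 3.12) were low and above the filter level on most arrays. Of the 6 stem and progenitor markers with a probe set, 3 rose and 3 fell with Dox in AML cells, against 48.6% of all genes called. Their mean per array was 4.86 to 4.91 in Control and 3.70 to 3.74 with Dox. Cd34 went from 8.67 to 3.44, Kit from 6.22 to 3.44 and Flt3 from 3.29 to 2.82 there, and Mecom from 5.30 to 5.91, Procr from 3.01 to 3.46 and Hlf from 2.81 to 3.23. In LSK cells 3 rose and 2 fell with Dox, against 19.1% of all genes called, and the mean per array was 6.27 to 6.35 in Control and 6.63 to 6.70 with Dox. There Procr went from 3.79 to 6.57, Mecom from 4.62 to 5.57 and Hlf from 4.29 to 4.61, and Kit from 7.71 to 6.95 and Flt3 from 7.38 to 6.51. Cd34, which had no call, went from 10.1 to 9.82. With the compounds, which also raised Plin2, 4 of the 6 rose and 0 fell in AML cells, and 2 rose and 2 fell in LSK cells. Of all genes, 32% and 34.2% were called in these comparisons. In AML cells Kit went from 6.22 to 7.76 and Cd34 from 8.67 to 9.04 with the compounds. The part of these markers in the Abca1 and Plin2 differences was not tested.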

How the data were processed

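RNA of 18 samples was measured on 1-colour Affymetrix whole-transcript arrays, 3 per group. The authors deposited log2 expression values per probe set, summarised by RMA per the submitters' processing notes. The software, version and settings behind RMA were not given in the sources used here. Of 41345 probe sets, 23521 had 1 gene symbol in the platform annotation, 1814 had several and 16010 were not listed, and 0 columns were left unused. The value distribution of LSK Compound replicate 1 differed from that of the other 17 arrays (SD 1.45 against 2.01 to 2.08), so it cannot be assumed to share their scale.

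Each gene kept its brightest probe set (mean over 17 arrays), and LSK Compound replicate 1 was left out. Genes above the 40th percentile of the array on at least 3 arrays (16337 of 22180) were fitted with limma 3.58.1 (R 4.3.3), with 1 mean per group, and p-values were adjusted by Benjamini-Hochberg over all genes tested. A gene was called at an adjusted p under 0.05. Errors after ± are SEs of the fit unless marked SD. The fit was tested on simulated data. The members and lists were chosen with earlier results of these data known. All 10 members are named, with up to 4 genes of smallest p per list and comparison, and the 5 genes most like Cd36 and Gpnmb, without predicted genes.

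Alternatives were all 18 arrays, the replicate number as a block, a fit of the groups compared only, median centring, quantile normalization, no filter, a filter at the 60th percentile, the mean of probe sets, array quality weights, an intensity trend with a robust prior, dim values set to the filter level, and each array left out. Promoter sequences were RefSeq's.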

Additional observations from a re-analysis of the deposited data

Results flagged for a closer look

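For 7 members, the response to a treatment differed between AML and LSK cells by the limma interaction contrast (AML minus LSK, log2, adjusted over all genes). For Dox, the difference was 2.28 for Gpnmb, 1.10 for Lpl, 0.81 for Plin2 and 0.72 for Abca1. Gpnmb and Lpl fell with Dox in LSK cells, Plin2 rose in AML cells with no call in LSK cells, and Abca1 rose in both. Gpnmb and Lpl lay not far above the filter level in AML Control, which left little room for a fall in AML cells with either treatment. For the compounds, the difference was -3.42 for Cd36 (-3.77 with AML Control, under the filter level, set to that level), 2.46 for Lpl, 0.88 for Abcg1, 0.74 for Fabp5 and 0.57 for Plin2. Cd36 rose in both cell types, Abcg1 fell in both, Lpl fell in LSK cells, Plin2 rose in both and Fabp5 rose in AML cells. The Gpnmb and Cd36 values share control arrays with the differences that chose these genes.

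On LSK Compound replicate 1, which entered no main comparison, 3 members were above the highest LSK Control array. Fabp4 was at 2.11 against 1.75, Abca1 at 4.74 against 3.40, and Apoe at 4.44 against 3.65. That array had a median of 3.24 over all probe sets, and the other 17 had 2.65 to 2.75.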

How the results depend on the processing

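Of 58 single differences of members tested, 33 were called, and 28 of these kept their call and direction in every alternative except all 18 arrays. These counts include Cd36 and Gpnmb between the untreated cells, which are described above without a test. No called value changed sign. Including LSK Compound replicate 1 ended 17 of the 33 calls, and the counts of members called went from 3 to 1 in AML Dox, from 5 to 2 in AML Compound, from 4 to 2 in LSK Dox, from 4 to 1 in the difference of the Dox responses and from 5 to 2 in that of the compound responses. Over all genes the calls then fell from 7935 to 4240 in AML Dox, from 5232 to 1064 in AML Compound, from 3127 to 602 in LSK Dox and from 5590 to 2925 in LSK Compound. That array enters the spread that all comparisons share. Leaving out each array in turn gave 2 to 3 members called in AML Dox, 4 to 5 in AML Compound, 3 to 5 in LSK Dox and 6 to 7 in LSK Compound. It gave 4 to 5 in each difference of responses, and 6 to 7 between the untreated cells, Cd36 and Gpnmb included. The Abcg1 fall in AML Compound was -0.38 without AML Compound replicate 3. The mean of all probe sets gave -0.53 for Fabp5 in LSK Dox and -0.84 between the untreated cells, where the probe set used gave -0.32 and -0.51. Calls gained were Apoe in AML Dox in 5 fits, Fabp5 in AML Dox with median centring (adjusted p = 0.036) and with the mean of probe sets (0.00612), and Pparg and Plin2 in some fits. The replicate numbers did not pair the samples: deviations of same-numbered arrays correlated at -0.11 to 0.10 (40 pairs), those of other arrays at -0.10 to 0.10 (80 pairs), and with the replicate block 0 of the 58 calls changed and the counts of members called were 3, 5, 4, 6, 4, 5 and 6 in the 7 comparisons. The number of arrays limits the precision, and Fabp4, Pparg and Cd36 in AML Control and AML Dox lie near background. Gpnmb in AML Control and AML Dox, and Lpl in AML cells, lie not far above it.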
